A study of Rattus norvegicus with 8 samples.

Results

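Left ventricular expression of 40 genes of glucose uptake, glycolysis, lactate exchange and glycogen turnover was compared between 2 rat strains. SHR is the spontaneously hypertensive rat, an inbred model of high blood pressure, and PD5 is a minimal congenic strain, which carries a small segment of foreign chromosome on the SHR background. Both groups were males aged 2 months, bred in one facility, fed standard chow and untreated, with 4 animals in each strain and 1 array per animal. PD5 rats carry the labels 207, 209, 210 and 212, SHR rats 213, 215, 218 and 219, and values per array follow that order throughout. The genes were listed by their textbook role, and a gene counted as measured where at least 1 probe set named that gene and no other. By this rule 35 of the 40 genes were measured, through 450 probe sets, out of 17309 genes in all. Hk1, Gapdh, Pgam1, Pkm and Gbe1 had no such probe set. For Gapdh, Pkm and Eno1, 10, 4 and 2 probe sets named a second gene as well and were not used, which left 1 for Eno1. The values are log2 signals as deposited, and a gene value is the mean over its probe sets.

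Glycolysis splits glucose into pyruvate, and the heart uses it beside fatty acids and lactate for energy. Glucose enters the cell through transporters of the Slc2a family and is trapped as glucose 6-phosphate by hexokinases. Phosphofructokinase then commits it to glycolysis. Its strongest activator, fructose 2,6-bisphosphate, is made and broken down by the bifunctional enzymes of the Pfkfb family, of which Pfkfb2 encodes the form known for heart, a target of insulin and adrenaline signalling. Many steps have paired isozymes encoded by separate genes, one typical of muscle and heart and the other of other tissues. Glucose 6-phosphate can instead be stored as glycogen, which phosphorylases release again.

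Many genes of the pathway gave bright signals in the ventricle. Of the 35 genes, 14 lay at or above the 95th percentile of gene levels, or 40.0% of them. They included Ldhb at 12.44 in PD5 and 12.47 in SHR, Pygm at 12.33 and 12.30, Tpi1 at 12.21 in both, Pgam2 at 11.92 and 12.04 and Gpi at 11.87 and 11.88. Brightness followed the tissue an isozyme is known from only in part. In each of the 10 isozyme pairs measured below, the gene named first was dimmer than its partner in both strains. The mean log2 ratio was smallest in size for Ldha relative to Ldhb, at -0.57 in PD5 and -0.60 in SHR. It was largest for Pygl relative to Pygm, at -5.93 and -6.05. Pygb, the brain phosphorylase, was among the 14 at 10.78 in PD5 and 10.85 in SHR, while Hk2, Pfkfb2 and Gys1 of heart and muscle lay at percentiles 78.5, 81.8 and 85.6. Hk3 of blood cells, at 5.24 and 5.17, and Aldoc of brain, at 5.40 and 5.61, were among the dim ones. Probe sets differ in brightness: those of Pfkfb2 alone ranged from 5.67 to 11.53 and those of Aldoa from 6.53 to 13.18. The signals are therefore given side by side and do not establish an order of transcript amounts between genes. Markers of cardiomyocytes, the tissue's defining cells, averaged between 12.34 and 12.47 over 8 measured genes on every array.

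Promoter sequences are shown for Pfkfb2 and Pfkfb4, which lay apart between the strains, and for 2 genes of the same pathway, Ldha and Pfkfb3, whose promoters hold the core of the hypoxia response element. They are the 250 bases before the annotated start, from RefSeq (GRCr8), 5′ to 3′ on the strand of the gene. Capitals mark ACGTG, used here as the hypoxia response core, and the GC box GGGCGG, on either strand.
Pfkfb2, chr13:44726972-44727221, minus strand: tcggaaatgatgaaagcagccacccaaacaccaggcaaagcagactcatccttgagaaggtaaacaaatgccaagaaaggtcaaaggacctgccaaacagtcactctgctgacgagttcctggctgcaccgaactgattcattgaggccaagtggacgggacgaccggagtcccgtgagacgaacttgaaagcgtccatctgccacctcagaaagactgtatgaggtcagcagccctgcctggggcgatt
Pfkfb4, chr8:118525916-118526165, plus strand: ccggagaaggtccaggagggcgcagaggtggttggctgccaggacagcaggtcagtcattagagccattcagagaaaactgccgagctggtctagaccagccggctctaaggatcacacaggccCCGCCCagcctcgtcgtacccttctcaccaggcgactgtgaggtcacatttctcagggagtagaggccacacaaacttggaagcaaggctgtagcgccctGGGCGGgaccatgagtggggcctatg
Ldha, chr1:106507842-106508091, plus strand: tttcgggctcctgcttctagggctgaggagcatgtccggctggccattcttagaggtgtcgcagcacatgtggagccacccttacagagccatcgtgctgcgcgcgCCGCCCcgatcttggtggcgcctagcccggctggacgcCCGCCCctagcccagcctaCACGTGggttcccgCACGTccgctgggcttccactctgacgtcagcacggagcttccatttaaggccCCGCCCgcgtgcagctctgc
Pfkfb3, chr17:71944683-71944932, plus strand: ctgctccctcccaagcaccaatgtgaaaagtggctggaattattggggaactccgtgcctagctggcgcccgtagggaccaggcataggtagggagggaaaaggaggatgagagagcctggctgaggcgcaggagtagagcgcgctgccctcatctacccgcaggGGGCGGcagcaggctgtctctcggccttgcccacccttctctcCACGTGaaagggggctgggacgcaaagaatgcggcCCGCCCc

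The RefSeq table held a promoter for 38 of the 40 listed genes. The core ACGTG, which is bound by hypoxia-inducible factors when preceded by fitting bases, stood in 17 of them, or 44.7%, against 19.0% of the 13882 promoters of genes on the array and 16.9% of all 27457 promoters of the same length. The palindrome CACGTG, which contains that core and is also read by E-box factors, stood in 6, or 15.8%, against 6.94% for genes on the array. The GC box stood in 19, or 50%, against 46.9%. Ldha and Pfkfb3 held both the palindrome and the GC box, Pfkfb4 held the GC box in 2 places and no ACGTG, and Pfkfb2 held neither.  Variants of the core with another first base were not searched. A match is a description of these letters in this window, and transcripts of the heart can begin elsewhere.

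None of the 35 genes passed the test between the strains. In limma, adjusted over all 17309 genes, the lowest adjusted p was 0.356, for Slc2a3, while 9 genes elsewhere on the array passed, or 0.052%. At an unadjusted p under 0.05 there were 3 of 35 genes, or 8.57%, where the share over all genes was 5.68%. Slc2a3 and Pfkfb2 were higher in PD5, where 2.77% of all genes were higher by this rule, and Pfkfb4 was lower, where 2.91% were. The 4 PD5 animals and the 4 SHR animals did not overlap in those 3 genes and in Pgam2, or 11.4% of the list, where the share over all genes was 3.49%. With counts of 3 and 4, these shares are given as a description. PD5 was higher in 17 genes and lower in 18, with a median log2 difference of -0.00063 over the list and 0 over all genes. The median size of a difference, without its sign, was 0.051 over the list and 0.069 over all genes.

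**Figure D1:**
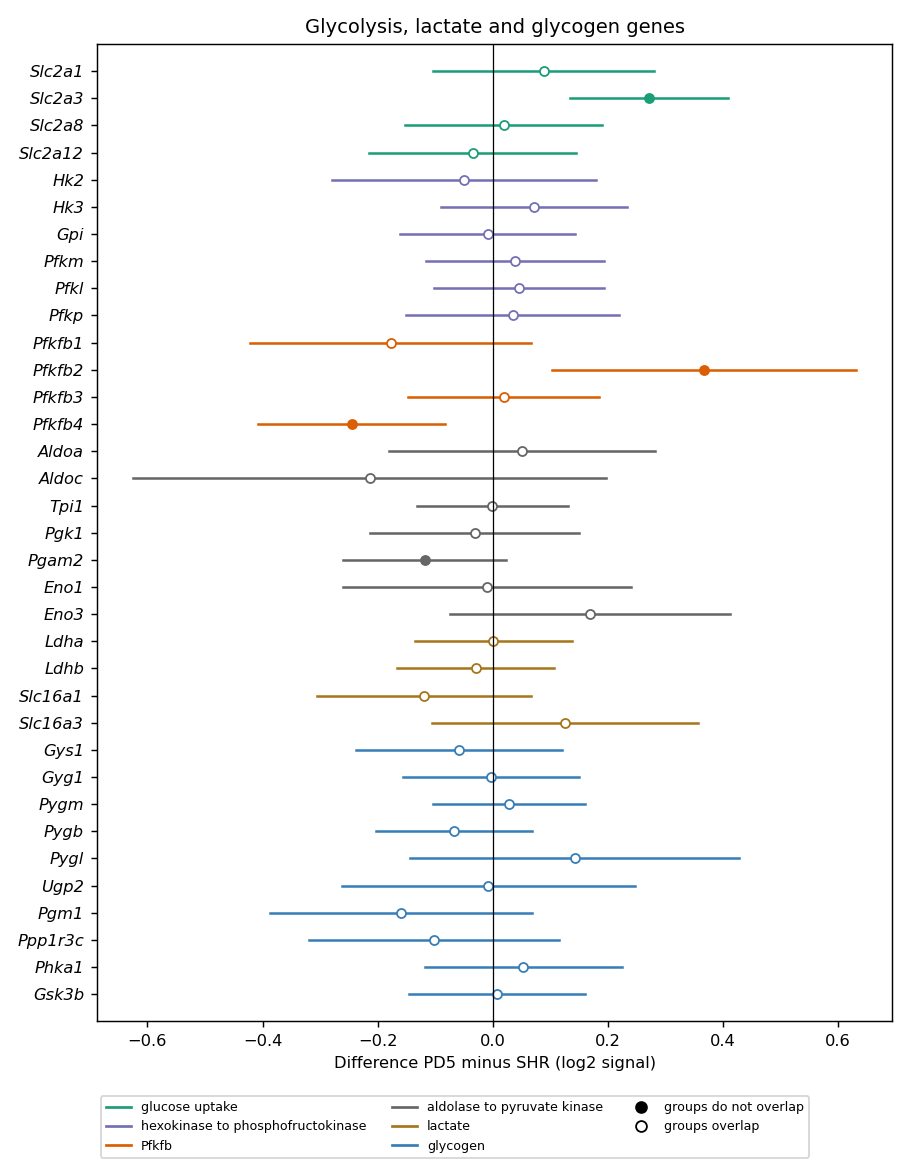
Difference between the strains for each of the 35 measured genes, PD5 minus SHR in log2 signal, with the 95% interval of the limma fit. Colours give the role, and filled points mark the 4 genes whose animals do not overlap: Slc2a3 at 0.27, Pfkfb2 at 0.37, Pfkfb4 at -0.25 and Pgam2 at -0.12.

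For most of the pathway the interval of the fit was narrow. These intervals reflect the spread between animals under 1 summary of the probe sets and are not adjusted for the number of genes. With the brightest probe set, Hk2 differed by 0.18 and Gpi by 0.19, where the mean over probe sets gave -0.05 and -0.01. The 95% interval lay wholly between -0.3 and 0.3, that is within 1.23-fold either way, in 24 genes, among them the lactate dehydrogenases, Tpi1, Gpi, Pfkm, Pygm and Gys1. The other 11 were Slc2a3, Pfkfb1, Pfkfb2, Pfkfb4, Aldoc, Eno3, Slc16a1, Slc16a3, Pygl, Pgm1 and Ppp1r3c, where larger differences were compatible with the spread between animals. This bound was chosen after the values were seen. Fewer cells of a type and less RNA per cell cannot be told apart in whole ventricle.

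Among the glucose transporters, Slc2a3, the high-affinity carrier known from neurons and blood cells, lay higher in every PD5 animal. It was at 7.35, 7.35, 7.43 and 7.28 in PD5 and at 7.13, 7.07, 7.10 and 7.03 in SHR. The lowest PD5 value, in animal 212, stood above the highest SHR value, in animal 213, and the animals of each strain lay close together. The log2 difference was 0.27 (SE 0.06, interval 0.13 to 0.41, 1.21-fold), with an unadjusted p of 0.00146 in limma and an adjusted p of 0.356.

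The Slc2a3 difference was uneven over its probe sets. Of 10 probe sets, 7 were higher in PD5, and single differences ran from -0.27 to 1.22. The largest belonged to a probe set at 8.85, 8.58, 8.55 and 9.13 in PD5 and at 7.89, 6.60, 8.35 and 7.39 in SHR. In that probe set the strains did not overlap, and the SHR animals varied widely. A second probe set was at 6.55, 6.66, 6.78 and 6.82 in PD5 and at 6.02, 6.32, 5.95 and 6.26 in SHR, also without overlap. When the median of the probe sets replaced their mean, the Slc2a3 difference was 0.03 and the strains overlapped. Without the probe set of largest difference it was 0.17 (unadjusted p = 0.0425, adjusted p = 0.846 in limma), and the strains overlapped as well, an alternative chosen after the data were seen.

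The other carriers differed little. Slc2a1, the basal transporter of many cell types, averaged 8.61 ± 0.15 over the PD5 animals against 8.52 ± 0.08 over SHR (SD, n = 4), a difference of 0.09 with an interval from -0.10 to 0.28. Slc2a8, an intracellular transporter, differed by 0.02 (interval -0.15 to 0.19) and Slc2a12, a further transporter found in heart and muscle, by -0.03 (interval -0.21 to 0.15). Slc2a4, the insulin-responsive transporter of heart, muscle and fat, belongs to a second list of pathway genes and averaged 10.31 ± 0.08 in PD5 against 10.32 ± 0.04 in SHR, with an interval from -0.15 to 0.14.

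**Figure D2:**
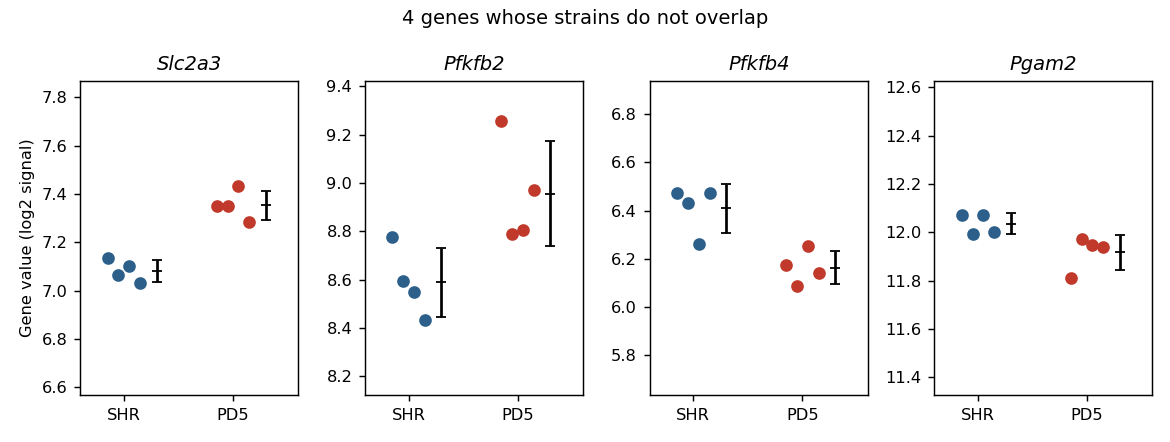
Gene values in log2 signal for each animal, SHR in blue and PD5 in red, with mean and SD beside the points; every panel spans the same range of log2 signal. The lowest PD5 value of Slc2a3 and Pfkfb2 lies above the highest SHR value, and the reverse holds for Pfkfb4 and Pgam2, with the narrowest gaps in Pfkfb2, Pfkfb4 and Pgam2.

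From hexokinase to phosphofructokinase, 0 of 6 measured genes had an unadjusted p under 0.05 in limma, and differences ran from -0.05 to 0.07. Hk2, the insulin-responsive hexokinase of heart and muscle, was at 8.78, 8.50, 8.41 and 8.44 in PD5 and at 8.70, 8.68, 8.45 and 8.49 in SHR. Both strains spanned nearly the same range, and the difference was -0.05 (interval -0.28 to 0.18). Hk3, a hexokinase of white blood cells, was at 5.32, 5.19, 5.14 and 5.31 in PD5 and at 5.06, 5.14, 5.22 and 5.24 in SHR. These values overlapped, with a difference of 0.07 (SE 0.07, adjusted p = 0.989 in limma), the lowest unadjusted p of this group at 0.343.

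Pfkm, the muscle subunit of phosphofructokinase, was at 11.02, 10.91, 10.86 and 10.97 in PD5 and at 11.01, 10.85, 10.91 and 10.83 in SHR. Animals of both strains were interleaved, and the difference was 0.04 (interval -0.12 to 0.19). The liver subunit Pfkl and the platelet subunit Pfkp differed by 0.05 and 0.04. Gpi, the isomerase between hexokinase and phosphofructokinase, differed by -0.01 (interval -0.16 to 0.14).

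Within the Pfkfb family, the 2 genes that lay apart between the strains pointed in opposite directions. Pfkfb2, the heart form, was at 9.26, 8.79, 8.80 and 8.97 in PD5 and at 8.78, 8.59, 8.55 and 8.43 in SHR. Animal 207 was the highest of PD5, and the lowest PD5 animal, 209, lay just above SHR 213. The log2 difference was 0.37 (SE 0.12, interval 0.10 to 0.63, 1.29-fold), with an unadjusted p of 0.0117 in limma and an adjusted p of 0.688. Without PD5 207 it was 0.27.

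All 22 probe sets of Pfkfb2 were higher in PD5, by 0.07 to 0.92, across signals from 5.67 to 11.53. Probe sets of one gene read the same RNA on the same arrays and are not independent, and none of the 22 passed singly. The brightest of them differed by 0.34, close to the gene's mean, and the median over them by 0.33; with either summary the strains overlapped. Without the probe set of largest difference the gene stood at 0.34 and the strains did not overlap.

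Pfkfb4, an isoform first described in testis and known as hypoxia-inducible, was at 6.18, 6.09, 6.25 and 6.14 in PD5 and at 6.47, 6.43, 6.26 and 6.47 in SHR. The highest PD5 animal, 210, lay just below SHR 218, and the other 3 SHR animals stood well above PD5. The log2 difference was -0.25 (SE 0.07, interval -0.41 to -0.08), with an unadjusted p of 0.00765 in limma and an adjusted p of 0.603. Part of it came from dim probe sets: 5 of its 15 probe sets were higher in PD5, and the largest difference, -1.53, belonged to a probe set of mean signal 3.29 in PD5 against 4.82 in SHR. Restricted to probe sets of at least 5 on the log2 scale, the Pfkfb4 difference was -0.12 (adjusted p = 0.944) and the strains overlapped. With the median of the probe sets it was -0.21, also with overlap. Without the probe set of largest difference, an alternative chosen after the data were seen, it was -0.15 (unadjusted p = 0.0965, adjusted p = 0.925 in limma). The strains overlapped there as well. The brightest probe set, in contrast, was at 7.89, 7.56, 7.64 and 7.67 in PD5 and at 8.04, 8.09, 7.99 and 8.06 in SHR, with no overlap and a difference of -0.36.

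**Figure D3:**
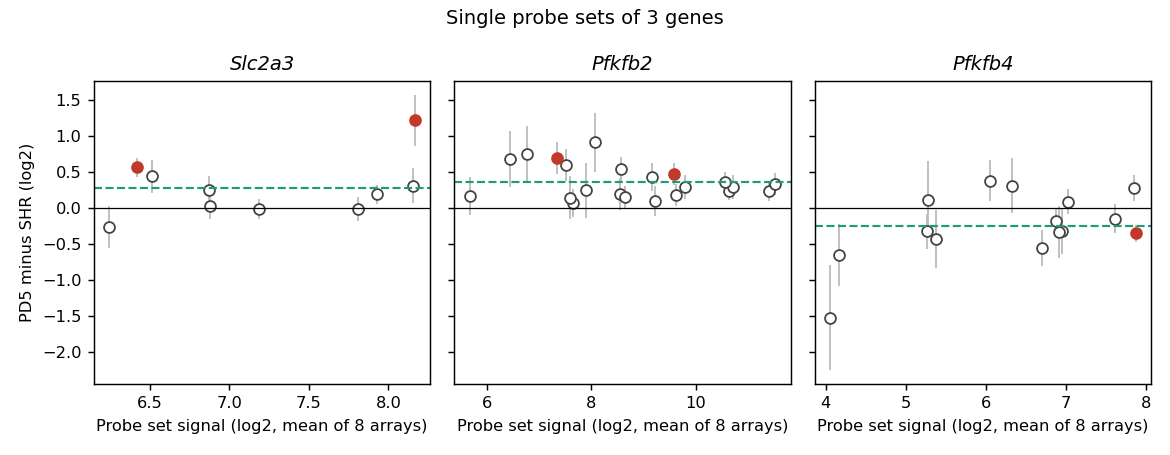
Single probe sets of Slc2a3, Pfkfb2 and Pfkfb4, with the mean signal over the 8 arrays on the horizontal axis and the log2 difference PD5 minus SHR with its SE on the vertical axis. Red points are probe sets whose strains do not overlap and the dashed line is the gene's mean difference; all 22 Pfkfb2 points lie above 0, while the Slc2a3 and Pfkfb4 points lie on both sides.

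The remaining Pfkfb genes overlapped between the strains. Pfkfb1, the form of liver and skeletal muscle, was among the dimmest genes of the list, with 4.76 ± 0.17 (SD, n = 4) in PD5 against 4.94 ± 0.17 in SHR. Its difference was -0.18 (interval -0.42 to 0.07, adjusted p = 0.966 in limma). Pfkfb3, the inducible form of proliferating and hypoxic cells, was at 7.48 ± 0.08 and 7.46 ± 0.10, a difference of 0.02 (interval -0.15 to 0.19).

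From aldolase to pyruvate kinase, 0 of 7 measured genes had an unadjusted p under 0.05 in limma. Pgam2, the muscle phosphoglycerate mutase, was at 11.81, 11.97, 11.95 and 11.94 in PD5 and at 12.07, 11.99, 12.07 and 12.00 in SHR. The groups did not overlap, but the gap between PD5 209 and SHR 215 was small beside the spread. The difference was -0.12 (SE 0.06, interval -0.26 to 0.02, unadjusted p = 0.0912, adjusted p = 0.923), and its 3 probe sets differed by -0.16 to -0.08. With the brightest or the median probe set, or after median centring of the arrays, the strains overlapped.

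Eno3, the muscle enolase, was at 11.31, 10.94, 10.92 and 10.84 in PD5 and at 10.97, 10.83, 10.73 and 10.82 in SHR. The strains overlapped, and animal 207 stood far above the other PD5 animals. All 10 of its probe sets were higher in PD5, but the gene's difference of 0.17 (interval -0.07 to 0.41) came to 0.07 without PD5 207. Eno1, the enolase of most tissues, rests on 1 probe set and differed by -0.01 (interval -0.26 to 0.24).

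Aldoa, the muscle aldolase, was at 10.16, 10.10, 10.08 and 9.99 in PD5 and at 10.14, 10.26, 9.93 and 9.80 in SHR. The PD5 values lay inside the SHR range, and the difference was 0.05 (interval -0.18 to 0.28). Aldoc had the widest interval of the list, from -0.63 to 0.20 around a difference of -0.21, since SHR animals ranged from 5.09 in 218 to 5.96 in 215. Tpi1 and Pgk1, which catalyse the isomerase step and the first ATP-yielding step, differed by -0.00063 and -0.03, with intervals from -0.13 to 0.13 and from -0.21 to 0.15.

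Lactate genes overlapped in all 4 cases. Ldhb, the heart subunit of lactate dehydrogenase, was at 12.44, 12.46, 12.45 and 12.42 in PD5 and at 12.45, 12.48, 12.40 and 12.57 in SHR. PD5 animals agreed closely and SHR 219 stood above all others, with a difference of -0.03 (interval -0.17 to 0.11). Ldha, the muscle subunit, rests on 2 probe sets and differed by 0.0013 (interval -0.14 to 0.14).

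Slc16a1, which encodes the lactate transporter of the cardiomyocyte membrane, was at 10.89, 11.01, 11.03 and 10.70 in PD5 and at 11.05, 11.01, 11.06 and 10.98 in SHR. Animal 212 was the lowest of PD5, animals 209 and 210 lay within the SHR range and animal 207 below it. The difference of -0.12 (SE 0.08, unadjusted p = 0.183, adjusted p = 0.977 in limma) came to -0.05 without PD5 212. Slc16a3, the exporter typical of glycolytic cells, was at 5.77, 6.03, 6.27 and 5.94 in PD5 and at 5.82, 5.97, 5.83 and 5.88 in SHR. Its difference of 0.13 was 0.04 without PD5 210, the highest animal at 6.27.

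None of the 10 measured glycogen genes lay apart or reached an unadjusted p under 0.05 in limma, with differences from -0.16 to 0.14. Pygm, the muscle glycogen phosphorylase, was at 12.39, 12.32, 12.29 and 12.33 in PD5 and at 12.38, 12.27, 12.30 and 12.27 in SHR. These ranges nearly coincided, and the difference was 0.03 (interval -0.10 to 0.16). Gys1, the muscle glycogen synthase, was at 9.10, 9.05, 8.93 and 9.06 in PD5 and at 9.28, 9.06, 8.98 and 9.05 in SHR. Only SHR 213 stood outside the PD5 range, and the difference was -0.06 (interval -0.24 to 0.12).

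Pgm1, which interconverts glucose 1-phosphate and glucose 6-phosphate, had the lowest unadjusted p of the glycogen genes at 0.150. It was at 9.57, 9.64, 9.49 and 9.18 in PD5 and at 9.64, 9.57, 9.72 and 9.58 in SHR. The difference of -0.16 (adjusted p = 0.966 in limma) came to -0.06 without PD5 212, the lowest animal. Of its 13 probe sets, 5 were higher in PD5. The largest difference, -1.58 (SE 1.23), belonged to a probe set of mean signal 8.38 in PD5 against 9.95 in SHR. Pygl, the liver phosphorylase, differed by 0.14, and by 0.02 without SHR 218, which was at 5.90. The brain phosphorylase Pygb differed by -0.07 (interval -0.20 to 0.07).

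Ugp2, which makes the glucose donor for glycogen, differed by -0.01, with PD5 207 at 10.54 and the other 7 animals between 10.02 and 10.29. Gyg1, the primer of glycogen, differed by -0.0029, Gsk3b, a kinase that restrains glycogen synthase, by 0.01 and Phka1, a regulatory subunit of phosphorylase kinase, by 0.05. Ppp1r3c, a glycogen-targeting subunit of protein phosphatase, differed by -0.10 (interval -0.32 to 0.11), with SHR 219 highest at 9.76.

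Ratios of paired isozymes were formed within each array, which removes differences in overall brightness between arrays but not those between probe sets. Of 12 pairs, 10 had both genes measured, and each was tested with a two-sided exact permutation test over the 8 animals, whose smallest possible p is 0.0286. After adjustment over the 10 pairs 0 passed, with 0.214 as the lowest adjusted p. With this floor a pair could pass only if at least 6 pairs stood at the smallest p, and 1 did, so the absence of passing pairs says little about the ratios. The difference of Pfkfb2 was known when these pairs were chosen. Pfkfb3 relative to Pfkfb2 was at -1.85, -1.33, -1.35 and -1.38 in PD5 and at -1.28, -1.14, -1.22 and -0.87 in SHR. Every PD5 animal had the lower ratio, by -0.35 on average (exact p = 0.0286, adjusted p = 0.214). Pfkfb3 itself differed by 0.02 and Pfkfb2 by 0.37, so this ratio mostly repeats the Pfkfb2 difference and is no separate result.

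Pfkfb1 relative to Pfkfb2 differed by -0.55 with SHR 213 below PD5 210 and 212 (exact p = 0.0857, adjusted p = 0.214). Slc16a3 relative to Slc16a1 differed by 0.24 and Pygb relative to Pygm by -0.09, with the same p-values. Both exceeded the SDs within PD5 and SHR, which were 0.18 and 0.10 for the first and 0.05 and 0.06 for the second. Aldoc relative to Aldoa differed by -0.26 (exact p = 0.257) and Eno1 relative to Eno3 by -0.18 (exact p = 0.286), both with overlap and with SDs of 0.21 and 0.18 in PD5 and 0.35 and 0.29 in SHR. Pygl relative to Pygm differed by 0.11 (exact p = 0.543). Ldha relative to Ldhb averaged -0.57 ± 0.06 (SD, n = 4) in PD5 against -0.60 ± 0.07 in SHR (exact p = 0.486), and Pfkl and Pfkp relative to Pfkm differed by 0.0068 and -0.0034 (exact p = 1 for both).

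**Figure D4:**
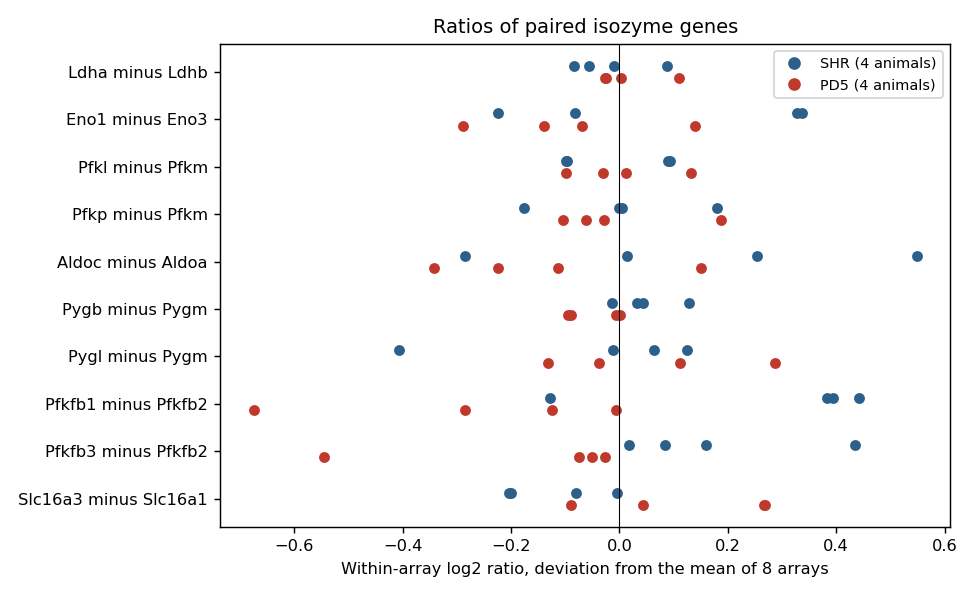
Within-array log2 ratios of 10 isozyme pairs as deviation from the mean of the 8 arrays, 1 point per animal, SHR in blue and PD5 in red. Pfkfb3 relative to Pfkfb2 is the 1 pair in which the strains do not overlap.

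Single animals moved many genes of the pathway at once. PD5 207 was the highest array in 13 of 35 genes, or 37.1%, whereas it was highest in 12.4% of all genes. These were Slc2a1, Hk2, Hk3, Gpi, Pfkm, Pfkl, Pfkfb2, Eno3, Ldha, Gyg1, Pygm, Ugp2 and Phka1. SHR 218 was the lowest array in 11 genes, or 31.4%, against 18.2% of all genes. The median deviation of the 35 genes from their own means was 0.063 in PD5 207 and -0.063 in SHR 218, beside -0.0020 and -0.023 over all genes. SHR 213 stood second on the high side, at 0.049, so both strains held animals with high values.

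**Figure D5:**
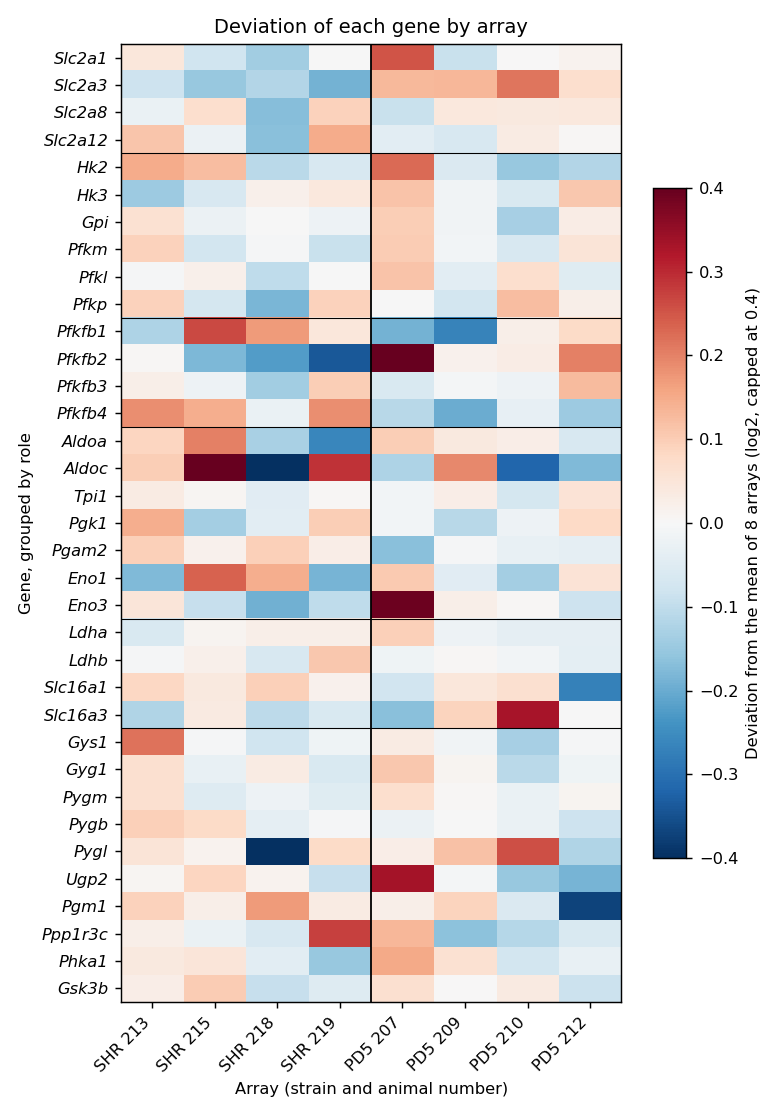
Deviation of each gene from its mean over the 8 arrays, in log2 signal, with arrays in columns by strain, genes in rows by role and colours capped at 0.4. The column of PD5 207 is mostly red, with 13 genes at their highest value there, and that of SHR 218 mostly blue, with 11 genes at their lowest.

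PD5 210 and SHR 219 stood apart from the other arrays over all probe sets. Mean correlation with the remaining arrays was 0.952 for PD5 210 and 0.950 for SHR 219, where the other 6 lay from 0.958 to 0.963. In PD5 210 the 9 adipocyte markers averaged 7.72, against 6.59 to 6.75 in the other PD5 animals and 6.70 to 6.80 in SHR. Slc2a3, Pfkp, Slc16a3 and Pygl, or 11.4% of the list, had their highest value in that animal, against 14.8% of all genes. Without it the Slc2a3 difference was 0.25, and the part of these markers in the values of the 4 genes was not tested. SHR 219 was the lowest array in 17.1% of the list, against 15.8% of all genes. These were Slc2a3, Pfkfb2, Pfkm, Aldoa, Eno1 and Phka1. Without SHR 219 the difference was 0.25 for Slc2a3 and 0.32 for Pfkfb2. Atrial markers averaged 8.58 to 9.71 in PD5 and 7.78 to 10.03 in SHR over 4 genes, with SHR 219 at 10.03. The part of atrial markers in the values of the listed genes was not tested.

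Markers of blood cells and nerve, where Slc2a3 and Hk3 are known, were set beside these genes. The 10 macrophage and monocyte markers averaged 8.52 to 8.58 in PD5 and 8.56 to 8.77 in SHR, with SHR 219 at 8.77. Of the 10, 8 were lower in PD5, with Cd163 at -0.41 (unadjusted p = 0.0226, adjusted p = 0.775 in limma) and Mrc1 at -0.28. The 7 granulocyte markers averaged 4.98 to 5.06 and 4.94 to 5.13, with 4 higher and 3 lower in PD5. The dim granule protein gene Ngp was higher in every PD5 animal, at 5.13 ± 0.02 against 4.84 ± 0.15 (SD, n = 4). Its difference was 0.29 (unadjusted p = 0.00569, adjusted p = 0.576 in limma), while Cxcr2 differed by -0.34. Ngp was the 1 of 7 without overlap, where the share over all genes was 3.49%. For neurons and Schwann cells the average over 6 markers ranged from 5.59 to 5.76 in PD5 and from 5.65 to 5.74 in SHR. Markers of thymus and mesothelium, tissues that can adhere to the heart, were lower in PD5 in 8 of 9 cases, with a median of -0.24. They averaged 5.76 to 5.91 in PD5 and 5.91 to 6.35 in SHR, with SHR 219 at 6.35. The part of these markers in the values of Slc2a3 and Hk3 was not tested. Endothelial markers averaged 10.03 to 10.12 in PD5 and 9.96 to 10.08 in SHR over 6 genes.

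Other genes of glucose metabolism gave no passing member either. In a second list of glycolysis and glycogen genes, 34 of 42 were measured, 18 higher and 16 lower in PD5, with a median of 0.01, and none reached an unadjusted p under 0.05 in limma. Closest were the fructose transporter Slc2a5, at -0.29 (adjusted p = 0.895), and the testis lactate dehydrogenase gene Ldhc, at 0.24 (adjusted p = 0.903). Among 12 measured genes of the pentose phosphate and hexosamine pathways the median was -0.02, and 0 had an unadjusted p under 0.05, with Rpia at -0.11 and Gfpt2 at -0.13.

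Genes of the hypoxia response outside glycolysis, both regulators such as Hif1a and Arnt and responding genes, were lower in PD5 in 13 of 19 cases. Their median was -0.04, and 0 passed over all genes. The vasodilator peptide gene Adm was at 7.24, 7.49, 7.51 and 7.43 in PD5 and at 7.77, 7.80, 7.72 and 7.84 in SHR. All PD5 animals lay below all SHR animals, with a difference of -0.37 (SE 0.08, unadjusted p = 0.000828, adjusted p = 0.265 in limma). P4ha1, a collagen prolyl hydroxylase gene, also lay apart, at -0.26 (unadjusted p = 0.00708, adjusted p = 0.598). These 2 of 19 had an unadjusted p under 0.05, where the share over all genes was 5.68%.

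PD5 is known as a congenic for a segment that carries Zbtb16, a transcription factor gene, and the labels do not state how far it extends. By the RefSeq gene table, 0 of the 40 listed genes lie within 1 Mb of Zbtb16, and 2 lie on its chromosome, Pfkfb4 and Pkm. Singly, 16 of the 450 probe sets had an unadjusted p under 0.05, or 3.56%, where the share over all probe sets was 4.98%, and 0 passed, beside 2 of 220231 elsewhere (0.000908%). The lowest adjusted p was 0.711, for a Pygl probe set.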

How the data were processed

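RNA from left ventricle of 8 male rats was hybridised to whole-transcript arrays after biotin labelling, and only RNA above a stated integrity number was used, per the labels' protocols. The submitters' processing notes name Partek 6.6 for the deposited log2 values of 220231 probe sets. How the authors corrected background, normalized and summarised is not given in the labels. Array medians ranged from 6.93 to 6.98, so values were used as deposited.

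The platform annotation named 1 gene for 166557 probe sets, several for 1631 and none for 52043. Symbols were updated through the GRCr8 gene table (14377 current, 2837 replaced, 95 without a match). A gene value was the mean over probe sets naming that gene alone, and the strain difference, PD5 minus SHR, was fitted for 17309 genes in limma 3.58.1 (R 4.3.3). Its two-sided p-values were adjusted by Benjamini-Hochberg, with a threshold of 0.05. No dim gene was left out. Intervals are 95% intervals of that fit. Isozyme ratios were tested with SciPy 1.17.1. Run on simulated arrays modelled on these 17309 genes, the fit recovered 50% of genes set 0.5 apart in log2 signal and 94% of genes set 1 apart. The simulation also held genes set up to 2 apart, which eases the adjusted threshold, whereas 9 genes passed in the data. Recovery in the data may therefore be lower. Differences as small as those of the listed genes, 0.37 or less in size, were not simulated.

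Values per array were given for the gene with the lowest unadjusted p in each role, for genes with an unadjusted p under 0.05 or without overlap, and for the textbook heart isoforms. Of each further pathway list, 2 genes were named by p, and Slc2a4 was added to them. The genes and lists were chosen with earlier results of these data known, so no test of the list as a whole was made. The number of arrays limits the precision, and with no detection calls used, dim signals may be background.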

Additional observations from a re-analysis of the deposited data

Results flagged for a closer look

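A sample far from the other 3 of its strain was sought in 70 groups of 4. In all, 3 were found, where chance gives about 1 in 20, so the count is no excess. Slc2a8 in PD5 207 was at 7.04, with the other PD5 animals from 7.17 to 7.17. Ldha in PD5 207 was at 11.97, with the others from 11.84 to 11.85. Pygl in SHR 218 was at 5.90, with the others from 6.34 to 6.41. PD5 207 most often held the highest value of the pathway and SHR 218 the lowest. The low Slc2a8 value of PD5 207 ran the other way.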

How the results depend on the processing

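Over 16 alternatives, none of the 35 genes passed in limma over all genes, and the lowest adjusted p was 0.178, for Slc2a3 with the dimmest genes left out. The count at an unadjusted p under 0.05 was 3 and ranged from 3 to 4 with one array left out, beside 5.01% to 6.49% of all genes. It was 2 with probe sets of at least 5 on the log2 scale (5.80% of all genes), 4 with a trended robust variance (5.82%), which added Pgam2, and 0 with the median of the probe sets (5.69%). The count without overlap was 4, beside 3.49% of all genes. With one array left out it was 4 to 5, but the share of all genes was then 5.74% to 7.14%. It was 2 with the brightest probe set (2.82%) and 0 with the median of the probe sets (3.12%). The cause was not tested. The Pfkfb2 difference stayed between 0.27 and 0.43, that of Pfkfb4 between -0.36 and -0.12, of Pgam2 between -0.14 and -0.08, and of Slc2a3 between 0.03 and 1.22, these last set by the median and the brightest probe set. The median over the list ranged from -0.026 to 0.022 with one array left out. Of the 35 genes, 14 kept their sign under every alternative and 21 did not, none of them larger than 0.21 in size. Of all genes, 9 passed, from 1 to 7 with one array left out, 0 without both PD5 210 and SHR 219, 0 with the brightest probe set, 5 with median centring and 47 with a trended robust variance. No paired analysis was possible because the strains share no animal number. Separate animals were taken as replicates, and litter is not given in the labels.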
